A study of Mus musculus with 8 samples.

Results

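The genes described here are 8 genes known for their work in podocytes, the epithelial cells that cover the outer face of the kidney's filter. They were chosen by name, with earlier results of these data known. A row of the count table belongs to the group when its gene symbol is Nphs1, Podxl, Synpo, Wt1, Ptpro, Plce1, Cd2ap or Actn4. All 8 were among the 34745 genes listed, and all 8 were among the 16576 genes with enough counts to be tested. After injury 4 of them, Ptpro, Plce1, Wt1 and Cd2ap, were higher than in sham kidney in both injured groups, while Nphs1, Podxl, Synpo and Actn4 did not pass the test. Calls were common, since 28.3% of all tested genes rose in uIRI and 22.1% in uIRI+MSC.

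Podocytes wrap the glomerular capillaries with interlocking foot processes, and the gap between neighbouring processes is bridged by the slit diaphragm, a cell junction that holds back plasma protein. The diaphragm is built around nephrin, which signals through adaptor proteins to the actin cytoskeleton of the foot process. Mutations in several of these genes cause inherited nephrotic disease in humans, and loss of their products is a feature of podocyte injury.

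Messenger RNA was sequenced from kidney tissue of wild-type (WT) mice at day 14. The injured groups were uIRI with transplanted MSCs, here uIRI+MSC (n = 3 libraries), and uIRI without them (n = 3), and the controls were sham kidneys (n = 2). In kidney research uIRI usually means unilateral ischaemia-reperfusion injury, and MSC means mesenchymal stem or stromal cell, but the labels spell out neither. All groups share the genotype WT, and the labels give no strain, age or sex, and no source, dose or time of transplantation for the cells. Separate animals are not stated for the libraries of a group, so a p-value reflects only spread among libraries, which may be technical.

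The 8 genes lie apart on GRCm38. Nphs1 is at chr7:30458315-30487223 on the plus strand, and Actn4 is on the same chromosome at chr7:28893248-28962340 on the minus strand. Podxl is at chr6:31519488-31563981 on the minus strand, and Ptpro is at chr6:137252319-137463233 on the plus strand. Wt1 is at chr2:105126529-105173616 on the plus strand, Plce1 at chr19:38481109-38785030 on the plus strand, and Cd2ap at chr17:42792951-42876424 on the minus strand. All 8 are annotated as protein-coding genes, which does not show which of their bases were counted.

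Promoter windows, 250 bases before to 50 bases after the start site, were matched for 5 of the 8 genes in RefSeq sequence of GRCm38.p6. The windows of 2 genes that rose after injury, Ptpro and Cd2ap, are shown first, and those of 2 that did not pass the test, Nphs1 and Actn4, after them. Capitals mark every match, on either strand, to 4 short motifs: GCGTGGG, the core bound by the EGR and WT1 zinc-finger factors, GGGCGG (GC box), CANNTG (E box) and TAATTA (LIM homeodomain core). No marked match overlaps another. The windows are chr6:137252049-137252348 (plus strand) for Ptpro, chr17:42876375-42876674 (minus strand) for Cd2ap, chr7:30459808-30460107 (plus strand) for Nphs1 and chr7:28962283-28962582 (minus strand) for Actn4.
Ptpro: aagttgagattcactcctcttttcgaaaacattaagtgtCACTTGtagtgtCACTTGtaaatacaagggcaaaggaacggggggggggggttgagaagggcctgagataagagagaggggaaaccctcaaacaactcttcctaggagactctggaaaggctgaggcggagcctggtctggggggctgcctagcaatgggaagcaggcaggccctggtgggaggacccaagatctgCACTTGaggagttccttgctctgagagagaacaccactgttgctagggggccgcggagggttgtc
Cd2ap: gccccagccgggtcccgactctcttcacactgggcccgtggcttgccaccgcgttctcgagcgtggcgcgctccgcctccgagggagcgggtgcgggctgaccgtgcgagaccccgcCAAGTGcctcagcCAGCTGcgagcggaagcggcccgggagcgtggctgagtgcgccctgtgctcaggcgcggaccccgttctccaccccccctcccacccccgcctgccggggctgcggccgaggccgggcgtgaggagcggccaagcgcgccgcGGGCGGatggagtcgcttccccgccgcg
Nphs1: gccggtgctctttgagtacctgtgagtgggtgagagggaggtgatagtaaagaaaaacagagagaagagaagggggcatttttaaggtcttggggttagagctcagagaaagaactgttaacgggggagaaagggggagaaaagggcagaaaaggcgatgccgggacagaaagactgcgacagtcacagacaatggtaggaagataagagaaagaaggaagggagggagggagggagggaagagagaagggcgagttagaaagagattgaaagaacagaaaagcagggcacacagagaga
Actn4: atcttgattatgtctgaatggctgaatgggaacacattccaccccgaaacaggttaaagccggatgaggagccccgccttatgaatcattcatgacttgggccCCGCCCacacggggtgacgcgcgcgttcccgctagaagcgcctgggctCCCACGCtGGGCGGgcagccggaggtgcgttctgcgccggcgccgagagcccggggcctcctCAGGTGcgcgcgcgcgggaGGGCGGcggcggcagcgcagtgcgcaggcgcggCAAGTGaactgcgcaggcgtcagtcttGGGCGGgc

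The windows differed in base composition and in motifs. GC content was 54.7% for Ptpro, 77.0% for Cd2ap, 49.7% for Nphs1 and 68.0% for Actn4, beside a median of 52.7% over all 32851 RefSeq promoter windows. The Ptpro window held 3 E boxes and the Cd2ap window 2, and Actn4, which did not pass the test, held 2 as well. E boxes stand in 72.3% of all windows. A GC box, found in 35.7% of all windows, occurred 4 times in Actn4 and once in Cd2ap. The EGR and WT1 core, found in 5.04% of all windows, was matched once, in Actn4. The LIM homeodomain core (5.29% of all windows) had no match in any of the 5 windows, and Nphs1 had no match to any of the 4 motifs. The RefSeq start of Nphs1 lies 1743 bases inside the gene as the count table places it, so its window is that of an inner start site.

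Depth was 11.6 to 22.7 (in units of 1e6 counts) in uIRI+MSC, 18.4 to 24.3 in uIRI and 14.2 and 14.6 in sham. Levels are given as CPM, counts scaled to a library of 1e6 after TMM scaling, which corrects for a few very abundant genes taking up a library. The scaling matters here, since the TMM factors were 1.028 to 1.07 in uIRI+MSC and 1.13 to 1.223 in uIRI, but 0.7059 and 0.766 in sham. Scaled by library size alone, the median log2 change of all tested genes would be 0.73 in place of 0.06 for uIRI against sham, and 0.55 in place of 0.03 for uIRI+MSC against sham. The tissue carried the defining markers of kidney, with the summed level of 12 proximal tubule genes at 11036 to 15185 CPM in uIRI+MSC, 2109 to 7427 CPM in uIRI and 41203 to 55925 CPM in sham. The podocyte markers Nphs1, Podxl, Synpo, Wt1 and Ptpro were all detected in every library. Fewer cells of a type and less RNA per cell cannot be told apart in whole-tissue RNA.

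Comparing uIRI with sham asks which of these genes stood at another level at day 14. The labels do not say from which event that day is counted. Ptpro and Plce1, which encode signalling enzymes, were more than doubled, and the adaptor gene Cd2ap and the transcription factor gene Wt1 rose by a smaller amount. The genes of the junction and cell coat, Nphs1 and Podxl, did not pass the test, and neither did the actin genes Synpo and Actn4. In all, 4 of the 8 rose, 0 fell and 4 did not pass the test at an edgeR adjusted p of 0.05. Across all tested genes 28.3% rose, 26.3% fell and 54.6% were called in either direction, so a call in this comparison is common. The 4 that rose also had every uIRI library above both sham libraries, which was so for 40.6% of all tested genes. The median log2 change of the 8 was 0.55, beside 0.06 over all tested genes. With library size alone as the scaling, 9041 genes were higher and 1991 lower, against 4683 higher and 4361 lower with TMM, and 7 of the 8 genes were called higher.

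Nphs1 encodes nephrin, the adhesion protein that spans the slit. It had 61.1, 66.5 and 51.7 CPM in uIRI+MSC 1, 2 and 3, then 65.6, 52.6 and 65.7 CPM in uIRI 1, 2 and 3, and 47.8 and 56.0 CPM in sham 1 and 2. One library of each injured group lay below sham 2, so the groups overlap. The log2 change was 0.24 ± 0.16 (SE) for uIRI against sham, with a 95% interval of -0.13 to 0.61 and an edgeR adjusted p of 0.241. For uIRI+MSC against sham it was 0.21 ± 0.16, with an interval of -0.17 to 0.58 and an edgeR adjusted p of 0.342. These intervals allow a rise of up to 1.53-fold and 1.49-fold. The call depends on the scaling. With library size alone the log2 change was 0.91 for uIRI against sham (edgeR adjusted p = 0.00331). For uIRI+MSC against sham it was 0.72 (edgeR adjusted p = 0.0138). That scaling put the median tested gene at 0.73 and 0.55 in these comparisons. In the deposited FPKM, which carry no TMM factor, Nphs1 was at 8.69 to 11.6 in uIRI+MSC, 9.73 to 13.1 in uIRI and 5.52 and 7.01 in sham, and both sham libraries were below every injured library.

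Podxl encodes podocalyxin, a sialic acid-rich protein of the apical podocyte surface that endothelial cells carry too. It had 361, 405 and 326 CPM in uIRI+MSC 1, 2 and 3, with 440.1, 359 and 497 CPM in uIRI 1, 2 and 3, and 290.2 and 366 CPM in sham 1 and 2. The libraries of all 3 groups overlap, and uIRI 3 was the highest. The log2 change was 0.40 ± 0.19 for uIRI against sham (edgeR adjusted p = 0.114) and 0.15 ± 0.19 for uIRI+MSC against sham (edgeR adjusted p = 0.553). As for Nphs1, scaling by library size alone brought both past the threshold, with log2 changes of 1.06 and 0.66. The median tested gene was then at 0.73 and 0.55.

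Synpo encodes synaptopodin, which binds actin in the foot process. It had 51.1, 41.7 and 78.0 CPM in uIRI+MSC 1, 2 and 3, with 77.2, 58.6 and 51.8 CPM in uIRI 1, 2 and 3, and 23.4 and 82.2 CPM in sham 1 and 2. The sham libraries were at the lowest and the highest value of all 8, a ratio of 3.51, so every Synpo comparison with sham turns on which of them is used. The log2 change of 0.24 ± 0.47 for uIRI against sham had a 95% interval of -0.82 to 1.31. It was -0.37 without sham 1 and 1.44 without sham 2, the second with an edgeR adjusted p of 0.0218. For uIRI+MSC against sham it was 0.11 ± 0.47 with both sham libraries, -0.50 without sham 1 and 1.32 without sham 2 (edgeR adjusted p = 0.0407).

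Cd2ap encodes an adaptor that ties nephrin to actin and endocytosis, and tubule cells make it too. It had 189, 273 and 319.7 CPM in uIRI+MSC 1, 2 and 3, with 212, 220.2 and 216 CPM in uIRI 1, 2 and 3, and 122 and 143 CPM in sham 1 and 2. All 6 injured libraries were above both sham libraries, and the uIRI+MSC libraries were the most spread. Cd2ap rose by 0.70 ± 0.21 on the log2 scale in uIRI (edgeR adjusted p = 0.0223) and by 0.97 ± 0.22 in uIRI+MSC (edgeR adjusted p = 0.00733). The uIRI call did not hold without sham 1 (edgeR adjusted p = 0.135) or without sham 2 (0.0531). For uIRI+MSC it was lost without sham 1 (edgeR adjusted p = 0.0654).

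Actn4 encodes alpha-actinin-4, an actin crosslinker that many cell types make. It had 499, 439 and 468 CPM in uIRI+MSC 1, 2 and 3, with 494, 562 and 489 CPM in uIRI 1, 2 and 3, and 498 and 536 CPM in sham 1 and 2. The groups overlap, and the spread within groups was the smallest of the 8 genes at 0.10 (SD of log2 CPM). The log2 change was -0.01 ± 0.15 for uIRI against sham, with a 95% interval of -0.34 to 0.33, and -0.14 ± 0.15 for uIRI+MSC against sham, with an interval of -0.48 to 0.19. Scaled by library size alone the log2 change was 0.66 in uIRI (edgeR adjusted p = 0.00434), which is below the shift of 0.73 that this scaling gives the median gene. For uIRI+MSC against sham it was 0.37 with that scaling (edgeR adjusted p = 0.062), again below the median gene at 0.55.

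Plce1 encodes phospholipase C epsilon, a lipase that acts as a signalling enzyme. It had 20.8, 21.0 and 24.8 CPM in uIRI+MSC 1, 2 and 3, with 28.1, 25.9 and 27.1 CPM in uIRI 1, 2 and 3, and 7.67 and 13.8 CPM in sham 1 and 2. All injured libraries were above both sham libraries, and the 3 groups did not overlap. Plce1 rose by 1.33 ± 0.24 in uIRI, a 2.52-fold change (95% interval 1.73 to 3.66, edgeR adjusted p = 0.00165), the largest change of the 8. In uIRI+MSC it rose by 1.04 ± 0.24, or 2.06-fold (edgeR adjusted p = 0.00798). The size rests partly on the pair of sham libraries, since leaving out 1 of them gave 0.99 or 1.84 in uIRI and 0.72 or 1.57 in uIRI+MSC, with the call kept in each case.

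Ptpro encodes GLEPP1, a receptor tyrosine phosphatase of the apical foot process membrane. It had 41.6, 51.0 and 47.3 CPM in uIRI+MSC 1, 2 and 3, with 54.8, 50.1 and 66.1 CPM in uIRI 1, 2 and 3, and 23.3 and 25.4 CPM in sham 1 and 2. The sham libraries were close together and the lowest injured library stood well above them. Ptpro rose by 1.23 ± 0.16 in uIRI, a 2.34-fold change (95% interval 1.80 to 3.04, edgeR adjusted p = 0.000388). In uIRI+MSC it rose by 0.94 ± 0.16, or 1.91-fold (95% interval 1.48 to 2.48, edgeR adjusted p = 0.00249). Of the 8 genes it had the smallest p in both comparisons with sham.

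Wt1 encodes a zinc-finger transcription factor that podocytes keep into adult life and that mesothelium also makes. It had 11.5, 13.4 and 14.8 CPM in uIRI+MSC 1, 2 and 3, with 14.0, 11.3 and 11.2 CPM in uIRI 1, 2 and 3, and 6.51 and 7.82 CPM in sham 1 and 2. All injured libraries were above both sham libraries. Wt1 rose by 0.76 ± 0.21 in uIRI (edgeR adjusted p = 0.0133) and by 0.88 ± 0.21 in uIRI+MSC (edgeR adjusted p = 0.00997). Its counts are low, at 67 and 85 in the sham libraries, and without sham 1 neither call held (edgeR adjusted p = 0.0876 and 0.0719).

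**Figure D1:**
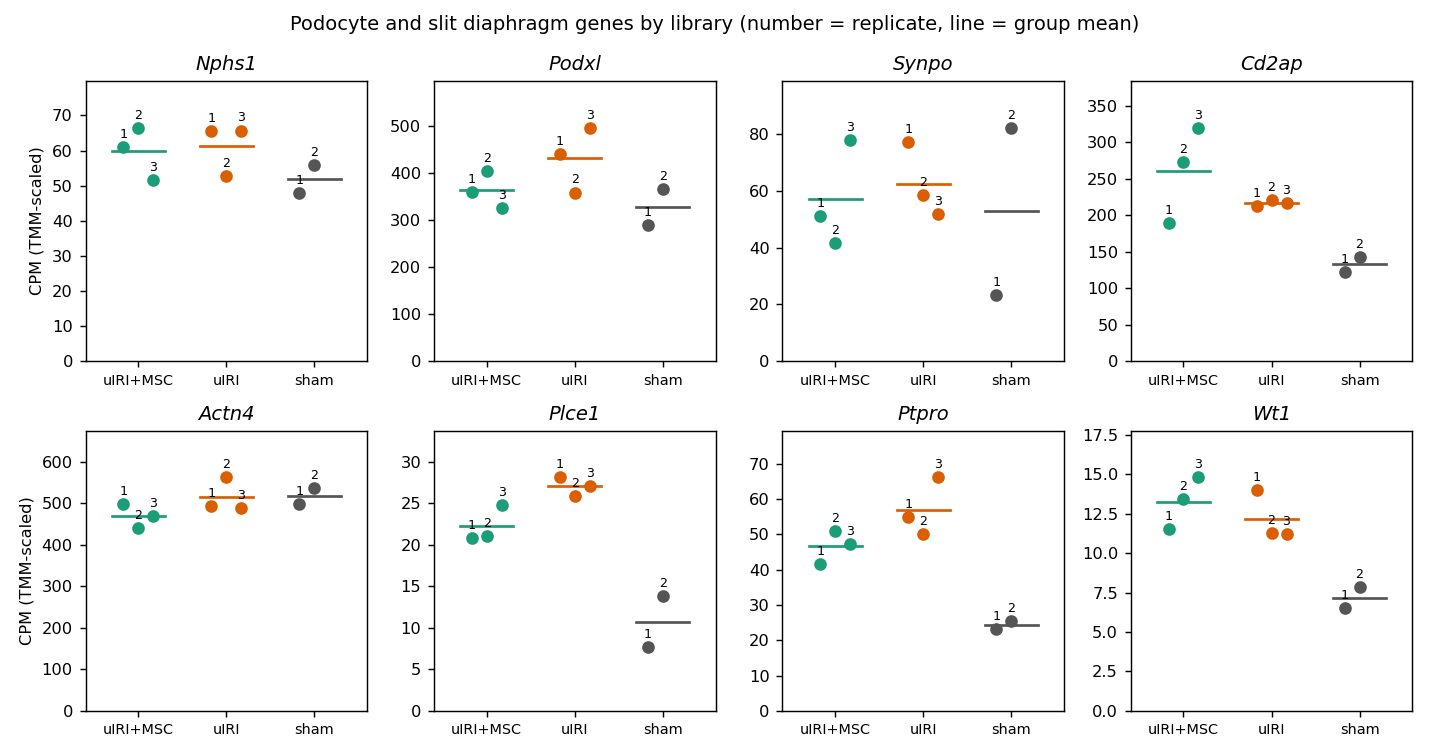
Level of each gene in CPM (TMM-scaled, linear axis from 0) in the 3 uIRI+MSC, 3 uIRI and 2 sham libraries, with points numbered by replicate and a line at the group mean. Cd2ap, Plce1, Ptpro and Wt1 have all injured libraries above sham, Nphs1, Podxl and Actn4 overlap, and the sham pair of Synpo spans 23.4 to 82.2 CPM.

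Against the same 2 sham libraries, uIRI+MSC gave calls for Ptpro, Plce1, Wt1 and Cd2ap too. Here 4 of the 8 rose, 0 fell and 4 did not pass, beside 22.1% of all tested genes that rose, 20.3% that fell and 42.4% called in either direction. The 4 had every uIRI+MSC library above both sham libraries, as had 33% of all tested genes. The median log2 change of the 8 was 0.55, against 0.03 over all tested genes. Both comparisons rest on the same sham libraries, so the second is no independent repeat of the first. Without sham 1 only 2 of the 8, Ptpro and Plce1, were called in either comparison. Without sham 2, Synpo joined the 4 in uIRI+MSC, which made 5, and library size alone as the scaling gave 6. That scaling gave 7398 genes higher and 1353 lower in this comparison, against 3670 and 3358 with TMM.

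Setting uIRI+MSC against uIRI asks whether the genes differed in injured kidneys with and without the cells. None of the 8 passed the test, and their log2 changes ran from -0.29 to 0.27. Across all 16576 tested genes 0 passed edgeR's test, which is 0% in either direction, while 3418 had an unadjusted p under 0.05. On the same genes DESeq2 called 1364 and limma-voom 0, and the 8 genes were called by none of the 3 tools. The median log2 change of the 8 was -0.14, beside -0.01 over all tested genes, and 6 of the 8 changes were negative.

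The signalling genes Ptpro and Plce1 had the lowest values in that comparison. Plce1, at 20.8 to 24.8 CPM in uIRI+MSC and 25.9 to 28.1 CPM in uIRI, was the only one of the 8 whose libraries did not overlap, and 12.7% of all tested genes had every uIRI+MSC library below every uIRI library. Its log2 change was -0.29 ± 0.20, with a 95% interval of -0.74 to 0.17 (edgeR adjusted p = 0.447). Ptpro changed by -0.29 ± 0.14, with an interval of -0.61 to 0.03 (edgeR adjusted p = 0.279). Cd2ap and Wt1 had positive values, 0.27 ± 0.19 and 0.11 ± 0.18, and Nphs1, at -0.04 ± 0.14, had an interval of -0.36 to 0.29. The interval of Synpo was the widest of the 8, from -1.08 to 0.81.

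**Figure D2:**
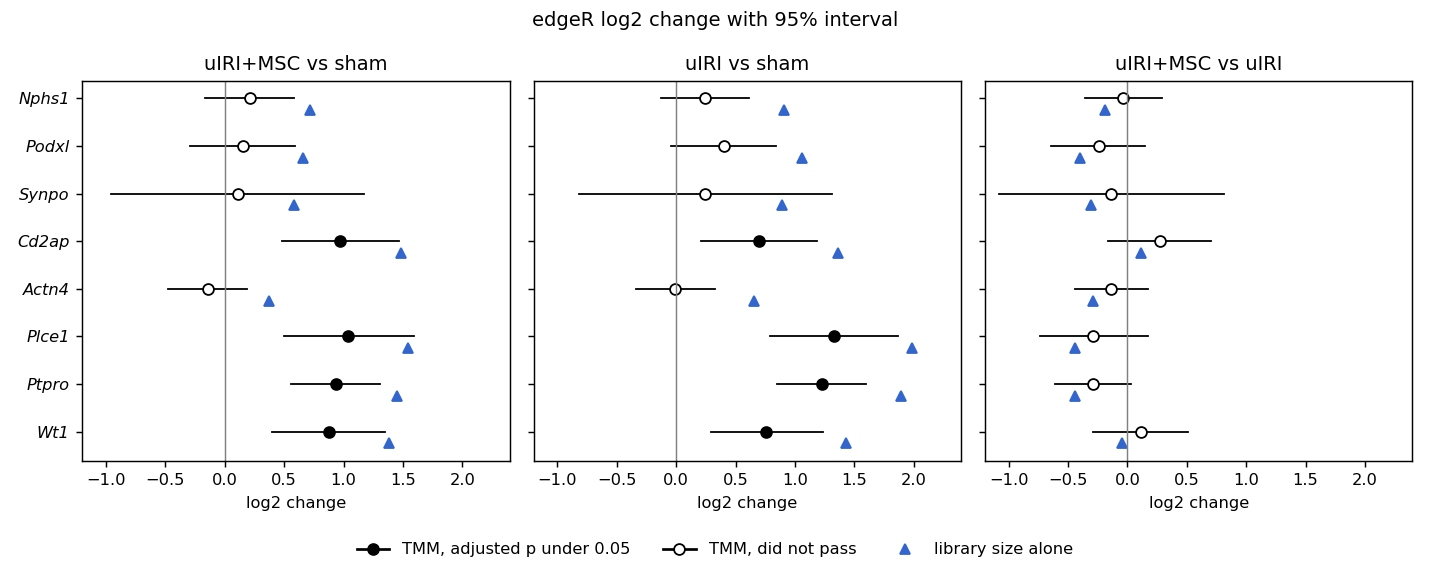
Log2 change with its 95% interval for the 8 genes in uIRI+MSC against sham, uIRI against sham and uIRI+MSC against uIRI (circles, edgeR with TMM scaling, filled where the adjusted p was under 0.05), and the estimate with library size alone (triangles). The triangles lie to the right of the circles in both comparisons with sham and slightly to the left in uIRI+MSC against uIRI.

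A ratio of 2 genes inside a library does not depend on how libraries are scaled, and Nphs1 served as the base since podocytes are its main source in kidney. Per count of Nphs1, Ptpro had 0.680, 0.767 and 0.914 counts in uIRI+MSC 1, 2 and 3, with 0.835, 0.952 and 1.01 in uIRI 1, 2 and 3, and 0.488 and 0.454 in sham 1 and 2. Plce1 had 0.340, 0.316 and 0.481 in uIRI+MSC, 0.428, 0.493 and 0.413 in uIRI, and 0.161 and 0.247 in sham. For both genes every injured library was above both sham libraries. The mean ratio of Ptpro to Nphs1 was 1.97-fold higher in uIRI than in sham and 1.66-fold higher in uIRI+MSC than in sham, and that of Plce1 was 2.23-fold and 1.87-fold higher. The ratios of Cd2ap (1.38-fold in uIRI and 1.68-fold in uIRI+MSC) and Wt1 (1.44-fold and 1.60-fold) were above sham in every injured library too. Such separation was common in CPM. There 40.6% of all tested genes had every uIRI library above both sham libraries, and 33% had every uIRI+MSC library above them. The share for ratios to Nphs1 is not given here.

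Podxl kept close to Nphs1, although every uIRI library had a higher ratio than both sham libraries (mean log2 difference 0.16). It had 5.91, 6.10 and 6.31 counts per count of Nphs1 in uIRI+MSC 1, 2 and 3, with 6.71, 6.81 and 7.56 in uIRI 1, 2 and 3, and 6.08 and 6.54 in sham 1 and 2. The log2 ratio had an SD of 0.12 over the 8 libraries and a range of 0.35, the narrowest of the 7 ratios, whereas that of Synpo ranged over 1.62. Its mean log2 ratio in uIRI+MSC was -0.20 relative to uIRI, without overlap, and the exact two-sided permutation p of 0.1 is the smallest that 3 against 3 libraries allow. The mean log2 ratio of Actn4 was -0.25 relative to sham in uIRI, with overlap, and -0.34 in uIRI+MSC, without overlap. In all, 21 ratios were compared by exact two-sided permutation tests, which cannot go below 0.1 with 3 against 2 libraries, and the smallest adjusted p was 0.3, so none passed.

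**Figure D3:**
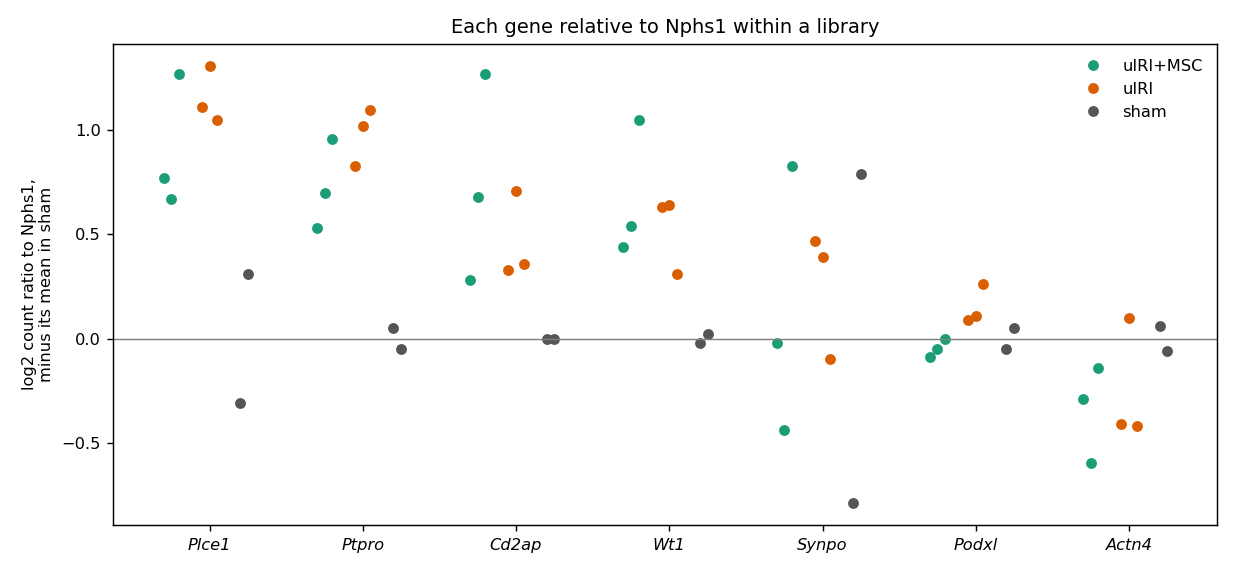
Log2 ratio of each gene's count to that of Nphs1 in the same library, minus its mean in sham, for uIRI+MSC (green), uIRI (orange) and sham (grey), 1 point per library. Plce1, Ptpro, Cd2ap and Wt1 have all injured libraries above sham, Podxl stays within a range of 0.35, and Synpo is spread over 1.62.

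Levels between genes can be compared only per length. In the deposited FPKM the order in uIRI+MSC was Actn4 (72.9 ± 4.41), Podxl (67.0 ± 8.61), Cd2ap (50.7 ± 12.3), Nphs1 (10.3 ± 1.49), Ptpro (4.88 ± 0.537), Synpo (1.84 ± 0.568), Wt1 (1.37 ± 0.157) and Plce1 (1.07 ± 0.0890), as mean ± SD over 3 libraries. In uIRI it was Actn4 (89.1 ± 5.36), Podxl (88.3 ± 15.4), Cd2ap (46.7 ± 1.06), Nphs1 (11.7 ± 1.78), Ptpro (6.64 ± 0.976), Synpo (2.27 ± 0.568), Plce1 (1.45 ± 0.117) and Wt1 (1.41 ± 0.241). Sham kept the order of uIRI+MSC, and its lowest genes were Wt1 at 0.524 ± 0.0980 and Plce1 at 0.367 ± 0.168 (n = 2). In uIRI+MSC the libraries of Actn4 overlap those of Podxl, those of Podxl overlap those of Cd2ap, and those of Synpo overlap those of Wt1. In uIRI the pairs Actn4 and Podxl, and Plce1 and Wt1, overlap, and in sham Ptpro, Synpo and Wt1 each overlap the next gene in the order.

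Places in that order depend on the gene length used. The FPKM and the counts together imply a length of 32416 bases for Synpo, 6.28 times its longest coding transcript of 5159 bases in the GENCODE annotation of GRCm38. For Podxl the ratio was 1.06 and for Cd2ap 1.01, while Wt1, Plce1, Ptpro, Actn4 and Nphs1 had ratios of 3.27, 2.31, 1.97, 1.74 and 1.33. Per kilobase of the longest coding transcript, Synpo was at 11.0 ± 3.65 CPM in uIRI+MSC, 12.1 ± 2.55 CPM in uIRI and 10.2 ± 8.06 CPM in sham. On that scale it stood next to Nphs1, at 13.0 ± 1.63 CPM in uIRI+MSC, 13.3 ± 1.63 CPM in uIRI and 11.3 ± 1.25 CPM in sham, and the libraries of both genes overlapped in each group. Wt1 was above Plce1 on that scale in every group with separate libraries, also in uIRI (3.94 and 2.87 CPM per kilobase), and Actn4 was above Podxl with separate libraries. Length is the same in every library, so it alters no comparison between groups.

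Genes that overlap exons of the 8 had few counts of their own where they are in the count table. The antisense gene Nphs1os shares 597 exon bases with Nphs1 and had 0 counts in every library. Capn12 shares 316 exon bases with Actn4 and had 0 to 9 counts, against at least 5130 for Actn4. A pseudogene, Rps12-ps4, that shares 183 exon bases with Nphs1 was not analysed here. Whether counting used strand was not given in the sources used here, so reads from a gene and an antisense partner cannot be told apart.

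Beyond the 8, of 17 slit diaphragm partners 7 rose, 2 fell and 8 did neither in uIRI against sham (median log2 change 0.56). Among all tested genes 28.3% rose and 26.3% fell in that comparison. The counts of the 17 depend on the scaling, since with library size alone 13 were higher and 0 lower (median log2 change 1.21). Of all 16576 tested genes 9041 were then higher and 1991 lower, with a median of 0.73. Those that rose with the smallest p were Cdh3, a cadherin found at the diaphragm, Kirrel3, a nephrin relative, and the kinase gene Fyn. Cdh3 was at 80.5 ± 3.73 CPM in uIRI and 10.4 ± 0.874 CPM in sham (SD, n = 3 and 2, as for all means here). Kirrel3 had 139 to 447 counts in the uIRI libraries but 3 and 1 in sham 1 and 2, too few for a fold change to be read. Fyn was at 48.7 ± 7.38 CPM in uIRI and 18.1 ± 2.52 CPM in sham. The log2 changes of Cdh3 and Fyn were 2.95 and 1.43. Magi2 and Crb2 did not pass, at 0.02 and 0.59, and the polarity gene Pard3 and the junction gene Igsf5 fell by 0.60 and 0.90, although Pard3 stood at 0.07 and Igsf5 at -0.24 with library size alone, neither past the threshold. These 4 genes were named after their values were seen. With the cells, 7 of the 17 rose and 1, Pard3, fell against sham (0.00 with library size alone), and the median was 0.18. With library size alone 10 were higher and 0 lower there, beside 7398 higher and 1353 lower among all 16576 tested genes. Among all tested genes 22.1% rose and 20.3% fell in uIRI+MSC against sham with TMM.

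Of 20 actin and foot process genes 13 rose, 3 fell and 4 did neither in uIRI against sham (median log2 change 1.08). There 28.3% of all tested genes rose and 26.3% fell. In uIRI+MSC against sham 9 rose, 2 fell and 9 did neither, with a median of 0.62, where 22.1% of all tested genes rose and 20.3% fell. Which cells made the transcripts of this list was not tested. Podoplanin (Pdpn), a membrane protein that podocytes share with lymphatic vessels, was at 44.4 ± 7.88 CPM in uIRI and 6.68 ± 1.35 CPM in sham. The intermediate filament gene Nes was at 193 ± 15.9 CPM in uIRI and 48.7 ± 10.4 CPM in sham, and the adhesion gene Kank2 at 106 ± 11.8 CPM in uIRI and 35.8 ± 2.45 CPM in sham. Their log2 changes were 2.73, 1.98 and 1.57.

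Of 9 podocyte transcription factors besides Wt1, 5 rose, 1 fell and 3 did neither in uIRI against sham (median log2 change 0.67). Among all tested genes 28.3% rose and 26.3% fell. Tcf21, which kidney stroma makes as well, was at 119 ± 26.0 CPM in uIRI and 18.8 ± 2.92 CPM in sham, and Zbtb7c at 30.5 ± 2.10 CPM in uIRI and 7.80 ± 2.11 CPM in sham. Lmx1b, named after its value was seen, did not pass, with a log2 change of 0.21. Against sham, uIRI+MSC had 4 of the 9 risen and 1 fallen, with a median of 0.51, where 22.1% of all tested genes rose and 20.3% fell.

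A list of 20 other podocyte markers was mixed. The sign of its median depended on the scaling, but the median was below that of all tested genes with TMM and with library size alone. In uIRI against sham 6 rose, 8 fell and 6 did neither (median log2 change -0.15). In uIRI+MSC against sham 5 rose and 5 fell (median log2 change -0.10). Among all tested genes 28.3% rose and 26.3% fell in the first comparison, and 22.1% rose and 20.3% fell in the second. Scaled by library size alone, the list had medians of 0.53 in uIRI against sham and 0.41 in uIRI+MSC against sham. The medians of all tested genes were then 0.73 and 0.55. That scaling gave 11 of the 20 higher and 3 lower in uIRI against sham, beside 9041 and 1991 of all 16576 tested genes. In uIRI+MSC against sham 8 were higher and 1 lower, beside 7398 and 1353 of all tested genes. Bmp7, a growth factor gene that tubule cells also express, was at 23.9 ± 5.14 CPM in uIRI and 71.7 ± 4.86 CPM in sham, and Ildr2 at 71.9 ± 12.9 CPM in uIRI and 161 ± 19.4 CPM in sham. Pla2r1, the antigen of human membranous nephropathy, rose to 38.8 ± 8.12 CPM in uIRI, against 13.1 ± 3.38 CPM in sham. The log2 changes were -1.59, -1.16 and 1.57.

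Of 14 genes for the membrane and its podocyte receptors 10 rose, 2 fell and 2 did neither in uIRI against sham (median log2 change 0.93). In uIRI+MSC against sham 8 rose and 2 fell, with a median of 0.79. Among all tested genes 28.3% rose and 26.3% fell in the first comparison, and 22.1% rose and 20.3% fell in the second. With library size alone 12 of the 14 were higher and 2 lower in uIRI against sham (median log2 change 1.59). That scaling gave 10 higher and 2 lower in uIRI+MSC against sham (median log2 change 1.29). Of all 16576 tested genes it gave 9041 higher and 1991 lower in the first comparison (median 0.73). In the second it gave 7398 higher and 1353 lower (median 0.55). Nidogen-1 (Nid1) was at 399.7 ± 89.6 CPM in uIRI and 64.0 ± 2.57 CPM in sham, agrin (Agrn) at 723 ± 43.1 CPM in uIRI and 277 ± 14.1 CPM in sham, and the integrin gene Itga3 at 188 ± 9.94 CPM in uIRI and 72.8 ± 14.7 CPM in sham. The 2 that fell were Col4a3 and Col4a4, which encode collagen IV chains of the mature membrane, by 1.46 and 1.23 on the log2 scale in uIRI and by 1.40 and 1.18 in uIRI+MSC. Col4a5, which encodes a chain that assembles with theirs, did not pass, at 0.36 in uIRI and -0.06 in uIRI+MSC. These 3 genes were named after their values were seen.

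Several relatives of the 8 genes had larger log2 changes than the genes themselves. Of 16 paralogs and relatives 14 were tested, of which 9 rose, 2 fell and 3 did neither in uIRI against sham (median log2 change 1.15). In uIRI+MSC against sham 8 rose and 2 fell, with a median of 0.88. Among all tested genes 28.3% rose and 26.3% fell in the first comparison, and 22.1% rose and 20.3% fell in the second. Actn1, the sister gene of Actn4, was at 248 ± 44.4 CPM in uIRI and 36.7 ± 2.55 CPM in sham, a log2 change of 2.76, beside -0.01 for Actn4. The Cd2ap relative Sh3kbp1 changed by 2.51 and the Podxl relative Podxl2 by 2.47, beside 0.70 for Cd2ap and 0.40 for Podxl. Whether these changes differ from those of the 8 genes was not tested.

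**Figure D4:**
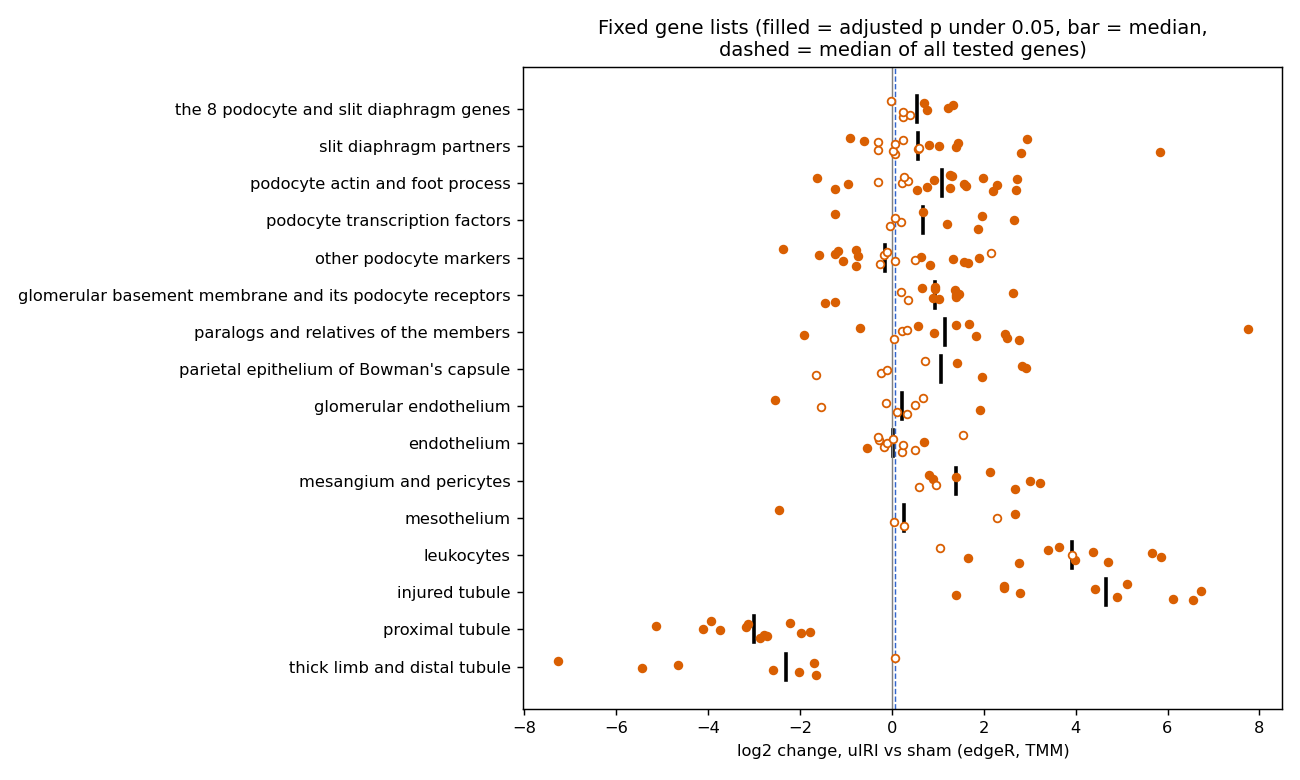
Log2 change in uIRI against sham for the tested genes of each list (points, filled where the edgeR adjusted p was under 0.05), with the list median (bar) and the median of all tested genes, 0.06 (dashed line). The 8 podocyte and slit diaphragm genes lie between -0.01 and 1.33, with a median of 0.55, while the list medians were -3.0 for proximal tubule, -2.31 for thick limb and distal tubule, 3.92 for leukocytes and 4.66 for injured tubule.

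Markers of other cells that could contribute these transcripts moved with the injury as well. The shares over all tested genes in uIRI against sham were 28.3% risen and 26.3% fallen. Of 11 leukocyte entries (Itgam is listed under 2 identifiers) 9 rose and 0 fell in uIRI against sham, with a median log2 change of 3.92, and their summed level was 1624 to 2332 CPM in uIRI+MSC, 2831 to 4373 CPM in uIRI and 225 to 266 CPM in sham. Of 10 injured tubule genes all 10 rose, with a median of 4.66, and of 9 mesangial and pericyte genes 7 rose and 0 fell, with a median of 1.39. All 12 proximal tubule genes fell, with a median of -3.0, as did 7 of 8 genes of the thick limb and distal tubule, with a median of -2.31. In the same comparison 4 of 8 parietal epithelial genes of Bowman's capsule rose and 0 fell, with a median of 1.07. The part of these cells in the changes of Ptpro, Plce1, Cd2ap and Wt1 was not tested.

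In uIRI+MSC against sham the counts for these lists were alike in direction. The shares over all tested genes there were 22.1% risen and 20.3% fallen. Of the leukocyte entries 9 rose, of the injured tubule genes 10, of the mesangial and pericyte genes 6 and of the parietal genes 4, and none of them fell. Of the proximal tubule genes 11 fell (6 with library size alone) and of the thick limb and distal tubule genes 7. Library size alone gave 1353 of all 16576 tested genes lower there. In uIRI+MSC against uIRI no gene of any of the 15 lists passed the test.

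Most endothelial genes, measured because endothelium also makes podocalyxin, did not pass the test, although more of them did with another scaling. Of 11 such genes 1 rose, 1 fell and 9 did not pass in uIRI against sham, where 54.6% of all tested genes were called. The summed level of the 11 was 772 to 869.7 CPM in uIRI+MSC, 907 to 957 CPM in uIRI and 829.8 to 965 CPM in sham. With library size alone 8 of the 11 were called higher and 0 lower in uIRI against sham. That scaling called 9041 of all 16576 tested genes higher and 1991 lower. The median log2 change was then 0.70 for the 11 and 0.73 for all tested genes. Of 8 glomerular endothelial genes 1, Plat, rose and 1, Lpl, fell in uIRI against sham. Lpl, which encodes lipoprotein lipase and is also made outside the glomerulus, was at 281 ± 50.7 CPM in uIRI and 1646 ± 66.1 CPM in sham. For uIRI+MSC against sham 1 endothelial gene rose and 2 fell, and 1 glomerular endothelial gene rose and 2 fell. The shares over all tested genes were 22.1% risen and 20.3% fallen. With library size alone 3 endothelial genes were higher and 0 lower in that comparison, and 2 glomerular endothelial genes were higher and 2 lower. Of all 16576 tested genes 7398 were then higher and 1353 lower. That scaling also gave 5 glomerular endothelial genes higher and 1 lower in uIRI against sham. Mesothelial genes, measured because mesothelium also makes Wt1, could be tested for 5 of 8, and Muc16 had 0 counts in every library. Of the 5, Krt19 rose by 2.68 ± 0.87 (SE) and Gpm6a fell by 2.45 on the log2 scale in uIRI against sham. Krt19 was at 76.6 ± 23.5 CPM in uIRI and 11.9 ± 15.3 CPM in sham (SD), so its 2 sham libraries were far apart. Gpm6a fell in uIRI+MSC against sham too. The summed mesothelial level was 77.9 to 155 CPM in uIRI+MSC, 113 to 158 CPM in uIRI and 202 to 277 CPM in sham, most of it from Gpm6a in sham. Without Gpm6a the sum was 29.8 to 69.4 CPM in uIRI+MSC, 59.9 to 121 CPM in uIRI and 2.04 to 41.5 CPM in sham. The part of mesothelium in the change of Wt1 was not tested.

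The genes with the most similar profile were sought by the root mean square difference of log2 CPM, each gene centred on its own mean, over the 8 libraries among 12210 genes with a mean FPKM of at least 1. For Nphs1 these were Faap100, Fam160b2 and Ttf1 (the closest at 0.048), and for Podxl Sde2, Myom2 and Arrdc1 (0.064). For Cd2ap they were Cxadr, Parp4 and G2e3 (0.099), for Actn4 Supt6, Zfand3 and Ilkap (0.061), and for Synpo Ccdc3, B4galt6 and Parm1 (0.203). The closest to Plce1 were Cbl, Notch3 and Zfp334 (0.091), to Ptpro Dopey2, Dnase1l1 and Zfp647 (0.081), and to Wt1 Serinc5, Ktn1 and Chsy1 (0.089). Among the 8 genes themselves the nearest pair was Nphs1 and Podxl at 0.108, where Podxl was 36th in the order of genes closest to Nphs1. Wt1 and Cd2ap followed at 0.155, then Nphs1 and Actn4 at 0.233 and Ptpro and Plce1 at 0.234. None of the 8 had another of the 8 as its closest gene.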

How the data were processed

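Messenger RNA of 8 mouse kidney libraries was sequenced by the authors. The deposited table gives a raw count per gene and library, and, per the file headers, an FPKM value, by definition scaled by gene length and depth. Per the submitters' processing notes, HISAT2 2.0.4, Bowtie2 2.2.6, StringTie 1.3.3b, SAMtools 1.9, edgeR 3.2.0 and FastQC 0.10.1 were used with GRCm38. What each tool did, the strand setting and the counting program were not stated in the labels.

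The 8 genes and all lists were chosen with earlier results of these data known. Counts were tested in edgeR 4.0.16 (R 4.3.3): filterByExpr with a minimum count of 10, TMM, and glmQLFit (legacy=TRUE) with glmQLFTest on all 3 groups, with 5 residual degrees of freedom. P-values were adjusted by Benjamini-Hochberg over 16576 genes at 0.05. The fit was also run on simulated counts with a small part of the genes changed, which cannot test the scaling when many genes change. Library log2 values use a prior count of 2. FPKM served only for levels and filters. DESeq2 1.42.0, limma-voom (limma 3.58.1), other scalings, filters, a replicate block and leaving out each library were alternatives. Named genes are the 8, up to 3 per list and comparison with the smallest p (called, no overlap, mean FPKM of at least 1 in the higher group), and the 3 genes of nearest profile. Genes named after their values were seen are marked, and some items are not reported here. Promoters and gene models came from RefSeq (GRCm38.p6) and GENCODE. Figures were drawn with matplotlib 3.10.9.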

Additional observations from a re-analysis of the deposited data

How the results depend on the processing

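Of the 8 genes, Ptpro and Plce1 rose in both comparisons with sham under every alternative run. With library size alone as the scaling, the number of the 8 that rose in uIRI against sham became 7, and Actn4 turned to 0.66 there and to 0.37 in uIRI+MSC against sham, while Wt1 turned to -0.045 in uIRI+MSC against uIRI. With 1 library left out, the number that rose was 2 to 4 in uIRI against sham and 2 to 5 in uIRI+MSC against sham, lowest without sham 1. The genes called then numbered 3938 to 6914 in uIRI+MSC against sham, lowest without sham 1, and 0 to 8 in uIRI+MSC against uIRI, where DESeq2 called 1364 with all libraries. Of 90 medians of gene lists recomputed with the 2 other scalings, 36 moved by more than the SD between libraries, all with library size alone. The cause of these shifts was not tested. A fit with 1 sham library takes that library to vary as the other groups do.

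The labels do not say whether the replicate numbers pair the libraries. Same-numbered uIRI+MSC and uIRI libraries had deviations from their group means correlated at -0.0506, 0.0716 and -0.095. For differently numbered libraries of these groups the correlations ran from -0.201 to 0.212. With so few libraries these values cannot show whether animals were paired. With the replicate number as a block the calls were 7959 in uIRI against sham, 0 in uIRI+MSC against uIRI and 5753 in uIRI+MSC against sham, and 4, 0 and 4 of the 8 genes rose.

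Several values near 0 changed sign. Actn4 in uIRI against sham was 0.0152 without a low-count filter, 0.0035 with at least 50 counts in 2 libraries, 0.0126 with the replicate block and 0.0178 with only the 2 groups fitted. With 1 library left out it ran from -0.0718 to 0.0708, none of which passed. In the same way Nphs1 ran from -0.14 to 0.0695 and Synpo from -0.42 to 0.0426 in uIRI+MSC against uIRI. Synpo ran from -0.37 to 1.44 in uIRI against sham and from -0.50 to 1.3 in uIRI+MSC against sham, passing in both without sham 2. Relative to the mean of the other 7 genes in place of Nphs1, the log2 ratio of Podxl in uIRI against sham was -0.29, that of Synpo -0.18, and that of Synpo in uIRI+MSC against sham -0.26. With 1 library left out, the ratio of Synpo to Nphs1 ran from -0.54 to 1.05 in uIRI against sham. In uIRI+MSC against sham the ratio ran from -0.098 to 0.0071 for Podxl and -0.67 to 0.92 for Synpo, and in uIRI+MSC against uIRI from -0.48 to 0.15 for Synpo, -0.032 to 0.27 for Wt1 and -0.20 to 0.072 for Actn4.

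Wt1 and Plce1 had the fewest counts of the 8, down to 67 and 79 in sham 1, and 2 sham libraries limit every comparison with sham.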
